A study of Mus musculus with 6 samples.

Results

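Transcripts of Cpt1c and of 8 other genes of long-chain fatty acid entry into mitochondria and mitochondrial β-oxidation were described in embryonic mouse lenses. The 9 genes, among 13024 in the count table, were Cpt1a, Cpt1c, Cpt2, Acadm, Acadl, Acadvl, Hadha, Hadhb and Acaa2. Cpt1c was chosen by its place among the genes the study lists as higher in these same libraries, so its difference is given as a description with no test. The other 8 were chosen by the function of their enzymes rather than by their values, although earlier results of these data were already known. All 9 reached 10 counts in 3 or more libraries, the minimum for entering the fit.

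Long-chain fatty acids are first joined to coenzyme A. The carnitine palmitoyltransferases then carry the acyl group into the mitochondrion: a CPT1 enzyme of the outer membrane moves it onto carnitine, a translocase takes the acylcarnitine across the inner membrane, and CPT2 moves the acyl group back onto coenzyme A. Inside, repeated rounds of dehydrogenation, hydration, a second dehydrogenation and thiolysis release acetyl-CoA. Malonyl-CoA, the precursor of fatty acid synthesis, inhibits CPT1. CPT1A is the isoform of liver and many other tissues and CPT1B that of muscle, whereas CPT1C is a mainly neuronal protein of the endoplasmic reticulum that binds malonyl-CoA and has little transferase activity.

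RNA was sequenced from lenses dissected at E14.5, with 3 pools in each of 2 groups and 10 lenses from 5 embryos in each pool. The CKO pools are labelled Gata3 -/-, and were made by crossing a Gata3 allele carrying loxP sites on both copies (Gata3 f/f) with Pax6-Cre, which deletes exon 4 in the ectoderm that forms lens and corneal epithelium and in scattered retinal cells. The control pools are labelled wild type and carried no Cre, although the study's own descriptions give them as Gata3 f/f in one place and Gata3 f/wt in another. All animals were on a mixed C57BL/6 and FVB background. Only the CKO pools carried Cre, so the presence of Cre and the loss of Gata3 cannot be told apart.

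Counted as a whole, the targeted gene was higher in the pools labelled CKO. Gata3, a zinc finger transcription factor, had 202, 386 and 156 counts in control pools 1, 2 and 3 and 910, 1064 and 894 counts in the pools labelled CKO. These are counts over the whole gene and do not show whether exon 4 was present. The study reports from its RNA sequencing that the floxed exon was excised in the mutant lenses. It also reports a strong reduction of the transcript by qPCR with primers reaching into that exon. Neither result was analysed here, and the whole-gene counts do not contradict them. The groups are therefore named below by their labels, and every direction given rests on them. Libraries held 15157230 to 18811104 counts. Lens fibre markers, including beaded filament and crystallin genes, were lower by fold change in the CKO-labelled libraries for 14 of 14 genes tested (median -1.37 on the log2 scale), although the study picked some of these genes from the same libraries. Of the 14, 10 had an unadjusted p under 0.05 in edgeR, against 3.55% of all genes, and none passed the adjusted threshold. Their summed level was 27239 to 79310 CPM in control (CPM are the counts of a gene scaled to a common library size) and 19977 to 29157 in the CKO-labelled libraries, with the highest value in control 2. Crystallins took 5.47% to 16.5% of all counts, again the most in control 2. In pools of whole lenses, fewer cells of a type and less RNA per cell cannot be told apart.

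Cpt1c and Cpt2, the members with the largest differences between the groups, are shown by the sequence at their starts. Each window runs from 250 bases before to 50 bases after the RefSeq transcript start, 5′ to 3′ on the strand of the gene, in build GRCm38.p6. The Cpt1c window is chr7:44974802-44975101 on the minus strand and the Cpt2 window is chr4:107923540-107923839 on the minus strand. Capitals mark a GATA-type motif.
Cpt1c: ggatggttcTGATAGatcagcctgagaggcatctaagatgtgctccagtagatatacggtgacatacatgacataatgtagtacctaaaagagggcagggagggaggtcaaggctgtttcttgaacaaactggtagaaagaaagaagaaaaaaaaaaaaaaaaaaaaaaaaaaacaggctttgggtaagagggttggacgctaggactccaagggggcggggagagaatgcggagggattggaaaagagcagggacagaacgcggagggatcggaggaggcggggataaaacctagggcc
Cpt2: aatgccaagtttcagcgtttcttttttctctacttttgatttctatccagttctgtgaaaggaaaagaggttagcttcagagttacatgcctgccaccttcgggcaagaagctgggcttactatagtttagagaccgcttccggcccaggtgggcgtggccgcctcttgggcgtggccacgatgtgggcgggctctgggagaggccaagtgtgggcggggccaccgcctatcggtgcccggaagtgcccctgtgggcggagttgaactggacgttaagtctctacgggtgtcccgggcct
The motif searched was AGATAA, also in the form AGATAG and in turn TGATAA or else TGATAG, on both strands. These are letters bound by GATA family factors. The Cpt1c window held TGATAG once on the strand of the gene, with its first base at -241 from the start. The Cpt2 window held none of these letters. Windows were at hand for 8 members, and 2 of the 8 (25.0%) held a motif, Cpt1c and Acadvl, against 18.1% of 12935 windows of genes in the count table. In Acadvl the motif read TTATCT on the strand of the gene, with its first base at -189 from the start. A match to these letters is a description and not a binding site.

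Cpt1c had 549, 548 and 562 counts in control libraries 1, 2 and 3 and 849, 970 and 902 counts in the CKO-labelled libraries. After scaling to effective library size by the trimmed mean of M-values (TMM), these were 34.8, 38.6 and 31.4 CPM in control and 55.0, 49.3 and 46.9 CPM in the CKO-labelled libraries. All 3 CKO-labelled libraries lay above all 3 control libraries. The group means and SDs were 34.9 ± 3.62 CPM in control and 50.4 ± 4.17 CPM in the CKO-labelled libraries (n = 3 each). On the log2 scale the fitted difference was 0.53, with a standard error of 0.11. Leaving out each library in turn gave 0.46 to 0.62. Over all 12879 genes tested, 3.67% lay wholly higher in the CKO-labelled libraries. As Cpt1c was selected on this contrast, nothing is read from its place among them.

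**Figure D1:**
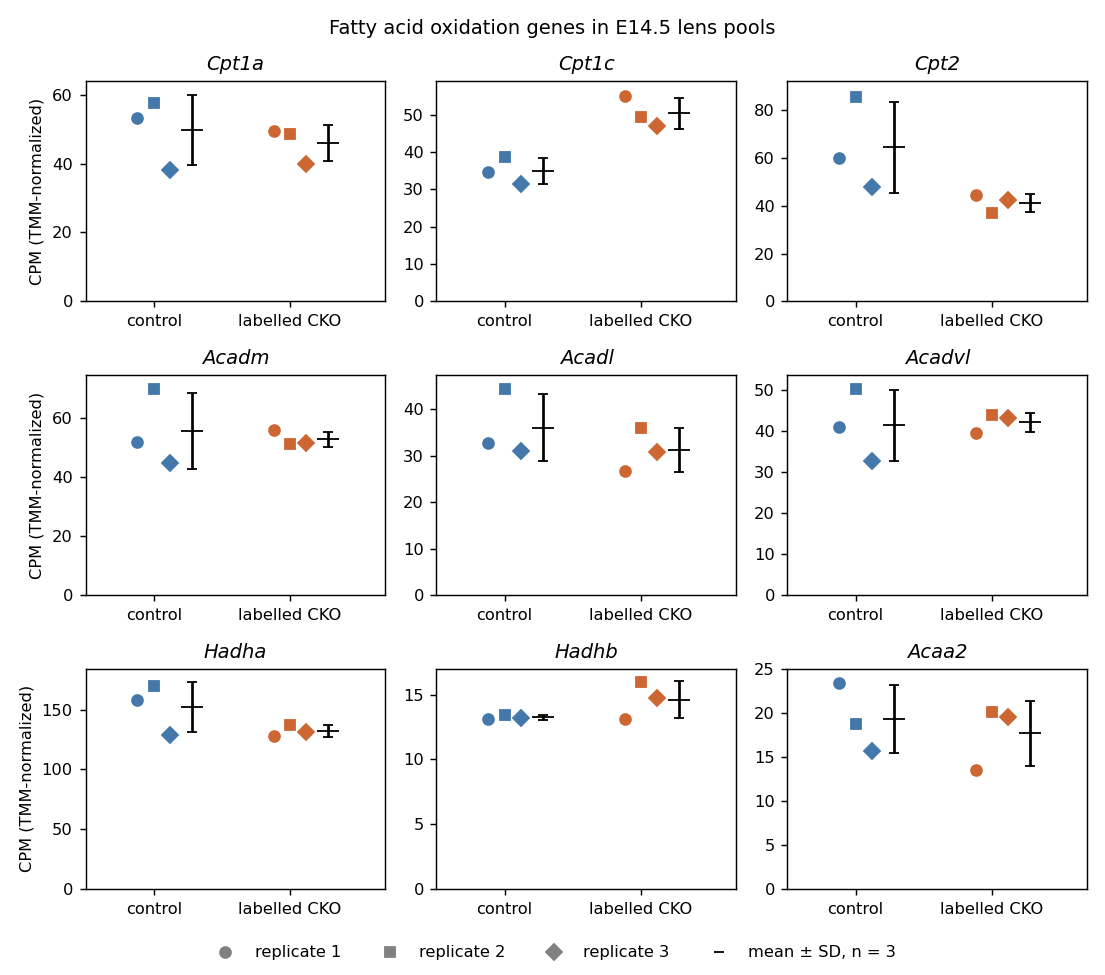
CPM of the 9 genes in each of the 6 libraries, with points for libraries and bars for the mean and SD of each group of 3, on an axis from 0 for every gene. Cpt1c lay between 31.4 and 38.6 CPM in control and between 46.9 and 55.0 CPM in the CKO-labelled libraries, whereas Cpt2 lay between 47.8 and 85.5 CPM in control and between 37.0 and 44.3 CPM in the CKO-labelled libraries.

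The Cpt1c gene lies at chr7:44959372-44974851 on the minus strand (mm10, GENCODE M21) and has 2793 exonic bases. Of these, 366 are shared with the exons of 6530437J22Rik, an antisense RNA gene on the opposite strand that is not among the counted genes. The libraries were strand-specific, but whether the counting used the strand is not given in the sources used here, and without strand the reads of the pair cannot be told apart over those bases. No 50-base stretch of Cpt1c transcripts was found in transcripts of any gene other than that antisense partner, with which 6.49% of stretches were shared.

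Of the other CPT1 isoforms, Cpt1a had overlapping groups and Cpt1b was barely counted. Cpt1a measured 53.2, 57.6 and 38.2 CPM in control and 49.4, 48.5 and 39.8 CPM in the CKO-labelled libraries. The fitted log2 difference was -0.11 (95% interval -0.52 to 0.29). Cpt1b, the muscle isoform, had few counts, with 6, 4 and 8 in control and 10, 12 and 10 in the CKO-labelled libraries. Its groups did not overlap, but at these counts the 95% interval of the log2 difference ran from -0.34 to 1.65. Per kilobase of exon, mean Cpt1b was 0.128 CPM in control and 0.205 CPM in the CKO-labelled libraries. These levels are low for a table filtered on a group mean FPKM above 1, a measure also scaled by length and library size. The cause of this mismatch was not tested, and overlaps of Cpt1b with other genes were not examined. The low counts therefore do not show that Cpt1b was barely expressed. Per kilobase of exon, the ratio of Cpt1c to Cpt1a within a library was 1.01, 1.04 and 1.27 in control and 1.72, 1.57 and 1.82 in the CKO-labelled libraries. Cpt1c and Cpt1a were thus at similar levels per length in 2 of the control libraries, and Cpt1c was above Cpt1a in each CKO-labelled library. This ratio includes the gene that was chosen for its difference and carries no test.

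Markers of neurons, the cells in which Cpt1c is best known, were present in every library. The 12 neuronal markers summed to 1767, 836 and 2777 CPM in control 1, 2 and 3 and to 2110, 1716 and 2384 CPM in the CKO-labelled libraries, and no marker was at 0. All 12 had a higher mean by fold change in the CKO-labelled libraries (median 0.18 on the log2 scale), but for each of the 12 the groups overlapped. Control 3 had the highest neuronal sum of all 6 libraries and the lowest Cpt1c level, and control 2 had the lowest neuronal sum and the highest Cpt1c level of the controls. The 9 retinal markers summed to 699 to 1521 CPM in control and 1040 to 1403 CPM in the CKO-labelled libraries. Mesenchymal markers ranged from 310 to 2356 CPM in control and from 355 to 4155 CPM in the CKO-labelled libraries, and were highest in CKO 2, in which Cpt1c lay between the other libraries of its group. The 14 lens fibre markers summed to 39076, 79310 and 27239 CPM in control 1, 2 and 3. They summed to 29157, 23313 and 19977 CPM in CKO 1, 2 and 3. Within each group the libraries ranked by this sum as they did by Cpt1c. Between the groups the sum was lower on average in the CKO-labelled libraries, where Cpt1c was higher. The part of any of these cells in the Cpt1c difference was not tested.

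**Figure D2:**
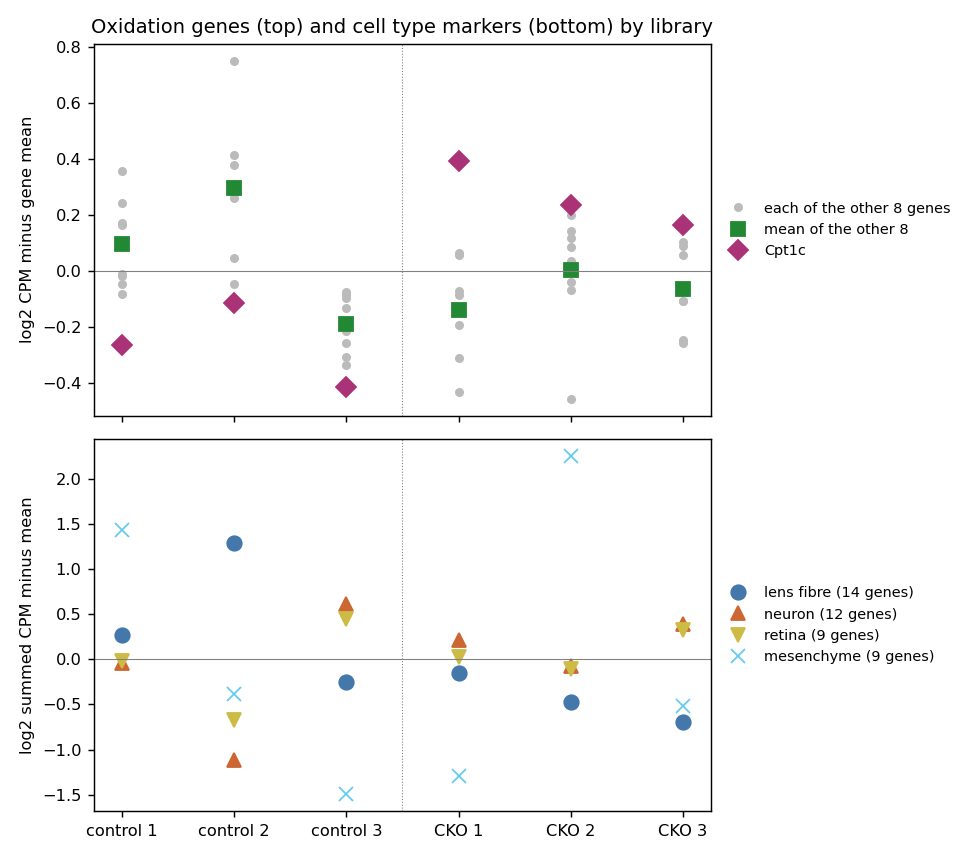
log2 CPM of the members in each library relative to the mean of the gene over 6 libraries, beside the summed level of cell type markers on the same log2 scale. The Cpt1c diamonds are below 0 in all 3 control libraries and above 0 in all 3 CKO-labelled libraries, whereas the neuronal marker sum (upward triangles) is highest in control 3 and lowest in control 2. The lens fibre sum (circles in the lower panel) is highest in control 2 and lowest in CKO 3.

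The genes closest to Cpt1c in profile were found by the root mean square difference of log2 CPM over the 6 libraries, after centring each gene on its mean. They were Rn45s (0.0553), Pgpep1 (0.0595), Tpmt (0.0819), Bace1 (0.0866) and Gdf11 (0.0874), where 0 would be the same profile. Rn45s is the ribosomal RNA precursor, Tpmt a methyltransferase of thiopurines, Bace1 the β-secretase and Gdf11 a growth factor of the TGF-β family. Tpmt, Bace1 and Gdf11 are also in the study's list of higher genes, so their likeness to Cpt1c follows in part from the same selection. The other members lay further from Cpt1c, from 0.26 for Hadhb to 0.60 for Cpt2.

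Cpt2, the inner membrane transferase that regenerates acyl-CoA, had the largest difference among the 8 members chosen by function, and it was in the opposite direction to Cpt1c. It had 949, 1213 and 856 counts in control and 684, 727 and 816 counts in the CKO-labelled libraries, or 60.1, 85.5 and 47.8 CPM against 44.3, 37.0 and 42.5 CPM. The groups did not overlap, control 2 was the highest library, and the control values spread over a wider range than those labelled CKO. The mean was 64.5 ± 19.2 CPM (SD, n = 3) in control and 41.3 ± 3.83 CPM (SD, n = 3) in the CKO-labelled libraries. The log2 fold change was -0.64 (standard error 0.21, 95% interval -1.15 to -0.13), with an unadjusted p of 0.0209 in edgeR's quasi-likelihood test and a Benjamini-Hochberg adjusted p of 0.9998 over all genes. The difference therefore did not pass the test. Without control 2 the log2 fold change was -0.38, and the other 5 libraries left out in turn gave -0.82 to -0.57. Cpt2 lies at chr4:107903981-107923610 on the minus strand and shared no exon bases and no 50-base stretch with another gene.

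In edgeR none of the 8 members chosen by function passed the adjusted threshold of 0.05, nor did any gene of the 12879 tested (0%). DESeq2, which the study itself used for its list of changed genes, called 85 genes of the table here and none of these 8. The smallest DESeq2 adjusted p among the 8 was 0.345, for Cpt2. At an unadjusted p under 0.05, 457 genes (3.55%) were called over the whole table, and Cpt2 was the 1 gene called among the 8. That count was 806 without control 2, 1234 without control 3 and 271 without CKO 3, and without control 3 Hadha also had an unadjusted p under 0.05. Over all genes tested, 4.69% lay wholly lower in the CKO-labelled libraries (604 genes, against 473 wholly higher), and Cpt2 was again the 1 gene of the 8. With scaling by library totals only, 292 genes lay wholly lower and 1408 wholly higher. By the sign of the fold change alone, 2 of the 8 were higher and 6 lower, and their median was -0.12 on the log2 scale, against 0.00187 over all genes, of which 6515 were higher and 6364 lower. With scaling by library totals only, which raised the median of all genes to 0.10, Cpt1a (0.00207) and Acadm (0.05) changed sign and the median of the 8 was -0.00504. Without control 2 that median was -0.00063, and without control 3 it was -0.26.

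**Figure D3:**
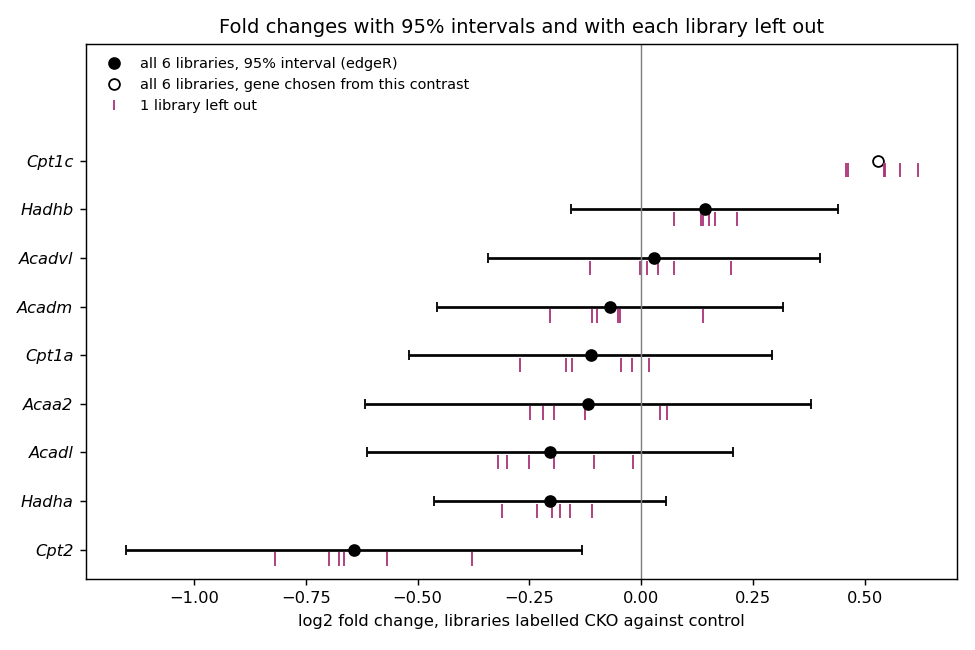
log2 fold change of the members, CKO-labelled libraries against control, with the 95% interval of the edgeR fit for the 8 genes chosen by function, no interval for Cpt1c, and small marks for the value with each library left out. The intervals of all genes but Cpt2 include 0, and the Cpt2 mark nearest to 0 is the value of -0.38 without control 2.

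The acyl-CoA dehydrogenases, which open each round of β-oxidation, had overlapping groups throughout. Acadvl, the very-long-chain enzyme, measured 41.0, 50.2 and 32.7 CPM in control and 39.4, 43.8 and 43.0 CPM in the CKO-labelled libraries. Acadl, the long-chain enzyme, measured 32.8, 44.3 and 31.1 CPM against 26.8, 36.1 and 30.9 CPM. Acadm, the medium-chain enzyme, measured 52.0, 69.8 and 44.9 CPM against 55.9, 51.2 and 51.7 CPM. Control 2 was the highest library for all 3. The log2 fold changes were 0.03 for Acadvl (95% interval -0.34 to 0.40), -0.20 for Acadl (-0.61 to 0.21) and -0.07 for Acadm (-0.46 to 0.32). Without control 2, Acadvl was at 0.20, Acadl at -0.02 and Acadm at 0.14.

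Of the 2168 exonic bases of Acadvl, 976 are shared with Dvl2 on the opposite strand, a signalling gene of the Wnt pathway that was also counted, and 24.0% of the 50-base stretches of Acadvl occur in Dvl2 transcripts. The Acadvl counts are therefore uncertain where reads from both genes met. Acadl shared no exon bases with another gene, and Acadm shared 4.10% of its 50-base stretches with other genes, most with the gene Gm5131.

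Hadha and Hadhb encode the α and β subunits of the mitochondrial trifunctional protein, which carries out hydration, the second dehydrogenation and thiolysis of long-chain acyl-CoA. The genes start head to head on chromosome 5, 273 bases apart, with Hadha on the minus strand from 30154980 and Hadhb on the plus strand from 30155253. The 272 bases between these RefSeq starts are shown because they lie between the subunits, as chr5:30154981-30155252 on the plus strand from RefSeq in build GRCm38.p6.
Hadha-Hadhb: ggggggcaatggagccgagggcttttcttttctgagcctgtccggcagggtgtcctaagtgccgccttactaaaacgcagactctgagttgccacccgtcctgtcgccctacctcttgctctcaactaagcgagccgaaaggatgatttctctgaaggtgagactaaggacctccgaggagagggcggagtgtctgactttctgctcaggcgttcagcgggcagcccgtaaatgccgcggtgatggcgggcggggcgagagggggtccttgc
In GENCODE M21 the Hadha gene extends to 30155162 and Hadhb starts at 30155248, so part of the stretch lies within the Hadha gene in that annotation. The stretch is 60.3% G and C and held none of the 4 motifs searched above.

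Hadha measured 159, 169.5 and 129 CPM in control and 128, 137 and 131 CPM in the CKO-labelled libraries. Its means were 152 ± 21.0 and 132 ± 4.80 CPM (SD, n = 3 each), and its log2 fold change was -0.20 (standard error 0.11, 95% interval -0.46 to 0.05), or -0.31 without control 3 and -0.11 without control 2. Hadhb measured 13.1, 13.5 and 13.2 CPM in control and 13.1, 16.0 and 14.8 CPM in the CKO-labelled libraries. The fitted log2 difference was 0.14 (95% interval -0.16 to 0.44), or 0.0735 without CKO 2 and 0.21 without CKO 1. The subunits thus had fold changes of opposite sign, neither of which passed the test with all 6 libraries. Hadhb varied least of the 9 genes, with a range of 0.28 in log2 CPM over the 6 libraries against a median range of 0.44 over all genes, 0.81 for Cpt1c and 1.21 for Cpt2.

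Per kilobase of exon, Hadha was 6.26, 6.52 and 5.07 times as high as Hadhb in control and 5.06, 4.46 and 4.60 times as high in the CKO-labelled libraries. Of the 50-base stretches of Hadhb, 58.7% occur in transcripts of other genes, most in the processed pseudogene Gm13910. Hadhb reads from those stretches could have been dropped or assigned elsewhere, so its low level and its ratio to Hadha are uncertain. Hadha shared 0.655% of its stretches, with the opposite-strand gene Garem2.

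Acaa2, the mitochondrial thiolase that ends the round for medium-chain acyl-CoA, measured 23.4, 18.8 and 15.7 CPM in control and 13.5, 20.1 and 19.6 CPM in the CKO-labelled libraries. The groups overlapped, and the fitted log2 difference was -0.12 (95% interval -0.62 to 0.38). It shared no 50-base stretch with another gene.

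The 8 members chosen by function were also compared by library. Control 2 was the highest of the 6 libraries for 6 of the 8 (75.0%), against 8 of 15 other mitochondrial β-oxidation genes (53.3%), 31 of 78 genes of all the pathway lists (39.7%) and 31.6% of all genes tested. The lowest library was CKO 1 for 4 of the 8 and control 3 for 3 of the 8. Over all genes tested, CKO 1 was lowest for 12.6% and control 3 for 21.3%. Among the 15 other mitochondrial β-oxidation genes, CKO 1 was lowest for 1 and control 3 for 9. Control 2 is also the library with the highest lens fibre sum and the highest crystallin share. Its sums were also the highest for lens epithelium (1301 CPM), macrophage (146 CPM) and blood (1437 CPM) markers. They were the lowest for neuron (836 CPM) and retina (699 CPM) markers, and neither for mesenchyme, muscle and vessel markers. The part of any of these cells in the values of the 8 members was not tested. The genes nearest to the mean centred profile of the 8 were Ubtd1 (0.0248), Hsd17b10 (0.0266), Tpt1 (0.0285), Dhrs1 (0.0304) and Tmem214 (0.0309), by the same root mean square measure. Hsd17b10 is itself a mitochondrial dehydrogenase with activity on short-chain hydroxyacyl-CoA.

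Levels were compared between genes in CPM per kilobase of exon. In control the order was Hadha (37.9 ± 5.23), Cpt2 (27.2 ± 8.10), Acadm (27.2 ± 6.27), Acadvl (19.0 ± 4.02), Acadl (18.8 ± 3.75), Acaa2 (12.7 ± 2.55), Cpt1c (12.5 ± 1.29), Cpt1a (11.5 ± 2.35) and Hadhb (6.37 ± 0.0877), each as mean and SD of 3 libraries. Neighbours in that order overlapped within 1 SD on each side, except Cpt1a and Hadhb. In the CKO-labelled libraries the order was Hadha (32.9 ± 1.19), Acadm (25.9 ± 1.26), Acadvl (19.4 ± 1.10), Cpt1c (18.1 ± 1.49), Cpt2 (17.4 ± 1.61), Acadl (16.3 ± 2.43), Acaa2 (11.7 ± 2.43), Cpt1a (10.6 ± 1.23) and Hadhb (7.03 ± 0.694). Here the neighbours Hadha and Acadm, Acadm and Acadvl, and Cpt1a and Hadhb were apart by more than their SDs. Cpt1c stood in place 7 in control and in place 4 in the CKO-labelled libraries. It overlapped both of its neighbours within 1 SD in each group, and Cpt2 went from place 2 to place 5. These places include the difference for which Cpt1c was chosen and carry no test.

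Beyond the 9 members, 90 genes of the wider pathway were listed by function, and 78 of them were in the table and tested. Of the 78, 34 were higher and 44 lower by the sign of the fold change (median -0.02 on the log2 scale). None of the 78 passed the adjusted threshold in edgeR or limma voom, and DESeq2 called 1, Prkab2. At an unadjusted p under 0.05, 1 was higher and 4 were lower, and the groups did not overlap for 3 higher and 5 lower genes. Over all genes tested, 3.55% were called at the unadjusted threshold, 168 genes higher and 289 lower. The shares without overlap were 3.67% wholly higher and 4.69% wholly lower.

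**Figure D4:**
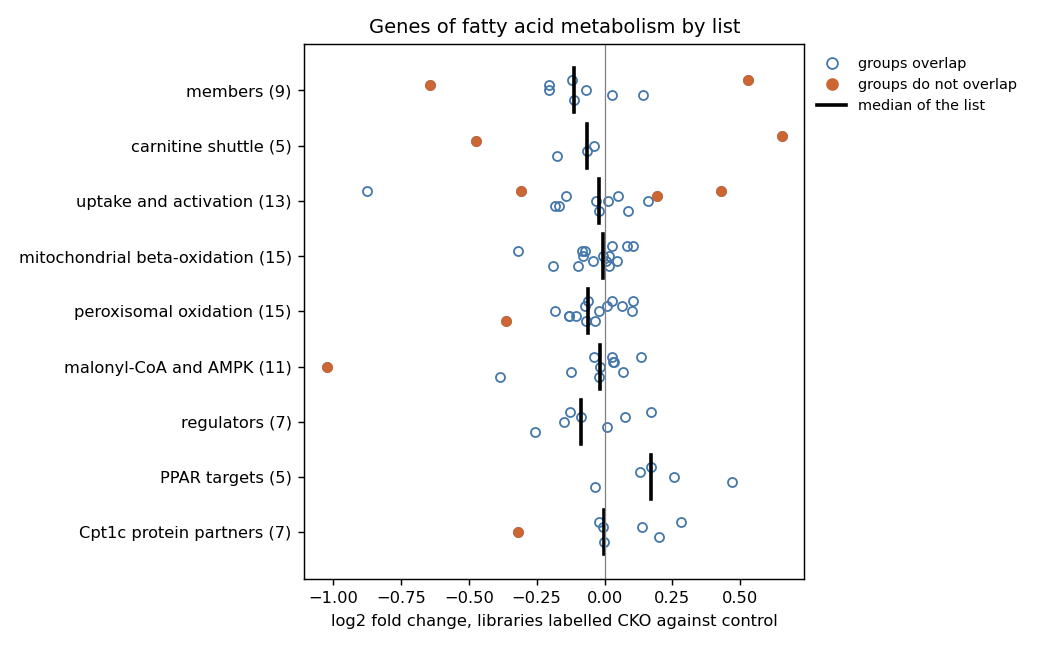
log2 fold change of each gene of the pathway lists, CKO-labelled libraries against control, with a point for each gene, filled where the groups do not overlap, a bar for the median, and the 9 members in the top line. The medians of the 8 lists below the members lie between -0.09 and 0.17, and the 15 other mitochondrial β-oxidation genes lie between -0.32 and 0.11.

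The other 15 enzymes of the mitochondrial spiral and its electron transfer had 7 genes higher and 8 lower, a median of -0.00483 (0.0652 without control 2 and -0.0712 without control 3) and no gene with an unadjusted p under 0.05. Etfb, a subunit of the flavoprotein that takes electrons from the dehydrogenases, was at the lower end (-0.32, 95% interval -0.96 to 0.32). Hadh, the short-chain hydroxyacyl-CoA dehydrogenase, was at 93.4 ± 13.6 CPM in control and 93.6 ± 1.99 CPM in the CKO-labelled libraries. In the peroxisomal list 5 of 15 genes were higher and 10 lower, with a median of -0.06.

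The carnitine shuttle list had 1 gene higher and 4 lower, with a median of -0.07. Crat, the carnitine acetyltransferase, measured 48.6 ± 6.04 CPM in control and 35.0 ± 0.445 CPM in the CKO-labelled libraries, with groups that did not overlap. The log2 difference was -0.47 (95% interval -0.72 to -0.22) with an edgeR adjusted p of 0.638. Slc25a20, the carnitine-acylcarnitine translocase that works between the CPT1 enzymes and CPT2, was at -0.18 (95% interval -0.50 to 0.15).

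Among the 13 genes of fatty acid uptake and activation, 6 were higher and 7 lower, with a median of -0.02. Slc27a3, of the fatty acid transport protein family, measured 14.2 ± 1.44 and 19.1 ± 0.944 CPM (0.43, edgeR adjusted p of 0.967), and its relative Slc27a4 measured 42.1 ± 4.29 and 48.2 ± 1.80 CPM. Acsl1, a long-chain acyl-CoA synthetase, measured 17.8 ± 0.0113 and 14.3 ± 1.37 CPM. The groups did not overlap for these 3 genes. Cd36, a fatty acid receptor of the cell surface, was low and uneven, at 4.78 ± 2.47 and 2.58 ± 1.59 CPM.

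Genes that set the level of malonyl-CoA, the ligand of CPT1C, were measured alongside. Acaca, a carboxylase that makes malonyl-CoA, was at 71.4 ± 2.01 CPM in control and 72.9 ± 1.50 CPM in the CKO-labelled libraries. Its log2 difference was 0.03 (95% interval -0.13 to 0.19). Mlycd, the decarboxylase that removes malonyl-CoA, was at -0.12 (-0.44 to 0.20), and Fasn, the synthase that uses it, was at 0.04 (-0.21 to 0.29). Prkab2, a β subunit of the AMP-activated kinase that inhibits the carboxylase, measured 75.1 ± 23.8 and 36.9 ± 5.32 CPM, and its log2 fold change of -1.02 (95% interval -1.58 to -0.46) had an edgeR adjusted p of 0.638. Prkab2 is in the study's list of lower genes, so its value is not independent of that choice. The malonyl-CoA and AMPK list as a whole had 5 of 11 genes higher and 6 lower, with a median of -0.02. Acacb and Prkag3, also on that list, are not among the counted genes and were not analysed here.

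Of the transcriptional regulators of the pathway, 7 were tested, 3 higher and 4 lower, with a median of -0.09. Ppargc1a, a coactivator of mitochondrial genes, measured 9.07 ± 1.27 and 7.59 ± 1.67 CPM, and Esrra, a nuclear receptor that works with it, measured 17.6 ± 2.53 and 19.8 ± 0.225 CPM. Ppara and Pparg are not among the counted genes and were not analysed here. Of 5 known targets of the PPAR receptors, 4 were higher and 1 lower, with a median of 0.17 and no gene with an unadjusted p under 0.05.

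The 7 genes listed as protein partners of CPT1C had 3 higher and 4 lower, with a median of -0.000602 (-0.13 without control 2, 0.15 without control 3 and 0.16 without CKO 1). Gria1, a subunit of AMPA-type glutamate receptors, measured 20.8 ± 0.882 CPM in control and 16.7 ± 1.60 CPM in the CKO-labelled libraries, with groups that did not overlap. The log2 difference was -0.32 (95% interval -0.59 to -0.05). Gria2 was at 0.20 (-0.72 to 1.12) and Gria4 at 0.28 (-0.74 to 1.30), with wide intervals. Sacm1l, a phosphatase of phosphatidylinositol phosphates, measured 76.4 ± 5.42 and 76.1 ± 3.88 CPM. None of the 7 passed the adjusted threshold in edgeR.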

How the data were processed

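The deposited table holds raw read counts per gene, which the authors made with HTSeq (0.6.1) from reads aligned with TopHat2 (2.0.13), with Trim Galore, Cuffdiff (2.2.1) and DESeq2 also named in the submitters' processing notes. The table holds genes that passed the authors' filter, a group mean FPKM above 1. The libraries were strand-specific, and the strand option of the counting is not given in the sources used here. Each group had 3 pools. Libraries held 15157230 to 18811104 counts. CKO pools are numbered by their titles, whereas the deposited count columns number the same pools differently.

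Counts were fitted with edgeR 4.0.16 (R 4.3.3) by the quasi-likelihood test, with TMM library sizes, on the 12879 genes that reached 10 counts in 3 or more libraries, and p-values were adjusted by Benjamini-Hochberg over all of them at 0.05. The fit was tested on simulated data. Intervals are 95%. DESeq2 1.42.0, limma voom 3.58.1, other scalings and filters, a replicate block and each library left out were tried as alternatives. Loci, exon lengths and overlaps come from GENCODE M21 (mm10). Shared sequence was counted as 50-base stretches found in transcripts of another gene.

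The members and lists were chosen with earlier results of these data known. Named genes are the members, the pathway and marker lists, Gata3, genes overlapping members, and the 5 nearest profiles. Ranges of the summed levels of the remaining marker lists are given in control and then labelled CKO. They were 989.7 to 1301 and 991 to 1029 CPM for lens epithelium and 68.5 to 159 and 52.9 to 162 CPM for muscle. Vessel markers gave 242 to 304 and 213 to 266 CPM. Macrophage markers gave 79.3 to 146 and 71.3 to 94.8 CPM, and blood markers 397 to 1437 and 339 to 469 CPM.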

Additional observations from a re-analysis of the deposited data

How the results depend on the processing

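The log2 fold change of Cpt1c was positive, and that of Cpt2 negative, under all 14 alternative fits. Scaling by library totals only raised the median of all genes to 0.10. Under it Cpt1a was at 0.00207 and Acadm at 0.0513, the lists of carnitine shuttle, peroxisomal, malonyl-CoA and AMPK, and regulator genes had medians of 0.0410, 0.0536, 0.0944 and 0.0175, the mitochondrial and partner lists both had medians of 0.10, the table had 1 gene called, and 1408 genes lay wholly higher and 292 wholly lower. DESeq2 called 85 genes, 1 of them in the wider pathway lists (Prkab2), whereas limma voom called 0, with 435 at an unadjusted p under 0.05. The cause was not tested.

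Leaving out each library in turn gave 0 to 1 genes called, with the 1 gene called without control 3. The log2 fold change ranged from -0.27 to 0.0164 for Cpt1a (0.0164 without control 2), from -0.20 to 0.14 for Acadm (0.14 without control 2), from -0.12 to 0.20 for Acadvl (-0.12 without control 3 and -0.00296 without CKO 2) and from -0.25 to 0.0581 for Acaa2 (0.0581 without control 1 and 0.0416 without CKO 1). List medians ranged from -0.18 to 0.0224 for the carnitine shuttle, -0.0651 to 0.13 for uptake and activation, -0.14 to 0.0336 for peroxisomal oxidation, -0.12 to -0.00548 for regulators and 0.0709 to 0.31 for PPAR targets. With 3 pools per group and 1 library able to turn these signs, small differences in these genes were not detectable.

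Whether same-numbered pools were paired could not be decided from the counts. The numbers used here, also for the block below, are those of the titles, and the count columns number the CKO pools differently. By column number, control 2 would go with CKO 1 (correlation 0.09) and control 3 with CKO 2 (-0.48). After centring each group on its mean, the correlations of same-numbered pools were -0.49, 0.09 and 0.44. The highest of any 2 pools was 0.56, for control 1 and CKO 2. Centring ties the correlations within a group to each other, so they cannot decide the question. A fit with the replicate number as a block called 0 genes, with 516 at an unadjusted p under 0.05 against 457 without it, and changed no call of a member.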
